A study of Mus musculus with 6 samples.

Results

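The genes described here encode the coat of the lipid droplet and the machinery that breaks down its triglycerides. They were chosen by symbol in the deposited expression table and are 10 of its 52089 symbols, namely *Plin1*, *Plin2*, *Plin4*, *Plin5*, *Cidec*, *Pnpla2*, *Abhd5*, *G0s2*, *Lipe* and *Mgll*. All 10 were present, and all 10 passed the filter of a mean of at least 1 RPKM (reads relative to transcript length and to the mapped reads in total), which left 11701 genes for testing. The libraries come from preadipocytes of the stromal-vascular fraction of 129SvEv inguinal white fat. These cells were induced for 2 days and then differentiated for 1 day. By the methods of the study, both phases included rosiglitazone, a ligand of PPARγ that turns them into brite (thermogenic) adipocytes. Insulin and triiodothyronine were also given in both phases. Isobutylmethylxanthine, indomethacin and dexamethasone were added during induction. In 3 libraries the long noncoding RNA *Ctcflos* was knocked down with 50 nM of an LNA gapmer antisense oligonucleotide (*Ctcflos* KD). The other 3 libraries received a nontargeting gapmer at the same dose (NC ctrl). Control cells were therefore also transfected and also exposed to rosiglitazone. RNA was collected 24 h after transfection, and total RNA libraries were made. One oligonucleotide represents the KD in these libraries, and the labels do not say whether the replicates are separate cell preparations, so that p-values measure the spread between libraries, which may be technical.

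Triglycerides of an adipocyte are stored in droplets whose surface is covered by perilipins and by the fusion protein encoded by *Cidec*. When catecholamines raise cAMP, protein kinase A phosphorylates perilipin 1 and hormone-sensitive lipase. The activator encoded by *Abhd5* is then released to the triglyceride lipase encoded by *Pnpla2*, and triglycerides are cut in sequence to diglycerides, monoglycerides and glycerol. The fatty acids set free feed mitochondria and activate uncoupling in thermogenic cells, and they are also ligands of PPARs.

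*Mgll* and *G0s2* were the members called lower with *Ctcflos* KD, at an adjusted p under 0.05 from limma. They make up 20% of the members, compared with 24.0% of all genes called in either direction. Neither passed without control replicate 1 or without control replicate 3. *Mgll* encodes the lipase of the last step, which cuts monoglycerides to glycerol and a fatty acid, and it remained at 48.8% of the control. *G0s2* encodes a small protein that binds and inhibits the lipase of the first step, and it remained at 57.9%. *Plin2* had the highest log2 fold change of the members, at 155% of the control, without passing the test. The log2 fold changes of the remaining 7 ranged from -0.56 to 0.16, and none of them passed the test.

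The upstream sequences of these 3 genes, which had the largest changes among the members, are shown as 250 bases before the annotated start, 5′ to 3′ on the strand of the gene (for *Mgll*, the more upstream of its annotated starts). They were taken from RefSeq on GRCm38.p6, which has promoters for all 10 members, 14 in total because some genes have several starts. Capitals mark the hexamer AGGTCA, which reads TGACCT where it lies on the opposite strand. Nuclear receptors such as PPARγ with RXR bind to its direct repeat with 1 base between the copies.
Mgll, chr6:88724162-88724411, plus strand: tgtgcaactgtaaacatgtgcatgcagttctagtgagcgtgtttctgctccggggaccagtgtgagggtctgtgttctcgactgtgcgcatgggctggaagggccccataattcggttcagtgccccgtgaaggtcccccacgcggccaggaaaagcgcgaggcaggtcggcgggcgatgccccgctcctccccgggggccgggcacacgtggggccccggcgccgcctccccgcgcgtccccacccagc
G0s2, chr1:193273189-193273438, minus strand: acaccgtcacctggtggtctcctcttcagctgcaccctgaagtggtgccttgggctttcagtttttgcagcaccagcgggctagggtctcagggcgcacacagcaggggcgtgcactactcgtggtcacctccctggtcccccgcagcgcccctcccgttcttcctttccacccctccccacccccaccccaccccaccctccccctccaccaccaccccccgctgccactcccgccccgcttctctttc
Plin2, chr4:86670060-86670309, minus strand: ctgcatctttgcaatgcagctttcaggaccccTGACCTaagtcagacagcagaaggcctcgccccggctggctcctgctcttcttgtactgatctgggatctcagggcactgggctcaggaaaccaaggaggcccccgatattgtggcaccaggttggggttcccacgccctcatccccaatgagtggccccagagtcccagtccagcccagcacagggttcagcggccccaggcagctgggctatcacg
The *Plin2* window held 1 hexamer, which begins 218 bases before the start, and the windows of *Mgll* and *G0s2* held none. Over the full promoters of 300 bases, reaching 50 bases past the start, the hexamer was present in 4 of the 14 promoters, belonging to *Plin2*, *Abhd5* and *Plin5*. In comparison, 16.3% of all 32851 promoters held one. The direct repeat was present in none of the 14 and in 0.0396% of all promoters. These are matches of letters and not sites of binding.

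At the depth recovered from the values, *Ctcflos* KD libraries had 60.8 to 75.5 mio mapped reads and controls 62.9 to 79.2 mio. In 7 members with an Ensembl transcript in the table, the longest of these held between 2486 and 88065 reads per library. In every library, more low values stood at 2 reads (1355 to 1525) than at 1 read (644 to 887), so that mates of a pair may have been counted separately and the number of fragments may be lower. *Ctcflos* (1300015D01Rik in the table) had 0.0969, 0.0705 and 0.210 RPKM in KD replicates 1, 2 and 3 and 0.748, 0.751 and 0.840 RPKM in the controls, so that 16.1% remained and KD replicate 3 kept the highest level of its group. These values average the accessions of the gene and lie under the filter. Certain libraries stood apart. Control replicate 2 was the lowest control for all 10 members. KD replicate 3 was the highest KD library for *Lipe*, *Mgll*, *Abhd5*, *Cidec* and *G0s2* and the lowest for *Plin2* and *Plin5*. The same 2 libraries were the highest of their groups for *Lyz2*, a macrophage gene, with 12.8 and 24.5 RPKM, and for *Acta2*, a smooth muscle gene, with 48.2 and 83.6 RPKM. Other macrophage and leukocyte genes were divided in KD replicate 3. Within the KD group, *Cd68*, *Csf1r* and *Cd14* were lowest there, at 2.16, 1.10 and 0.580 RPKM. *Adgre1* and *Ptprc* were highest there, at 0.138 and 0.00373 RPKM. Within the controls, *Cd68*, *Csf1r*, *Adgre1* and *Ptprc* were highest in replicate 2, at 1.92, 0.833, 0.345 and 0.0486 RPKM. *Cd14* lay between the other controls there, at 0.932 RPKM. The part of these differences in the members' values was not tested, and results without either library are given where they change.

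**Figure D1:**
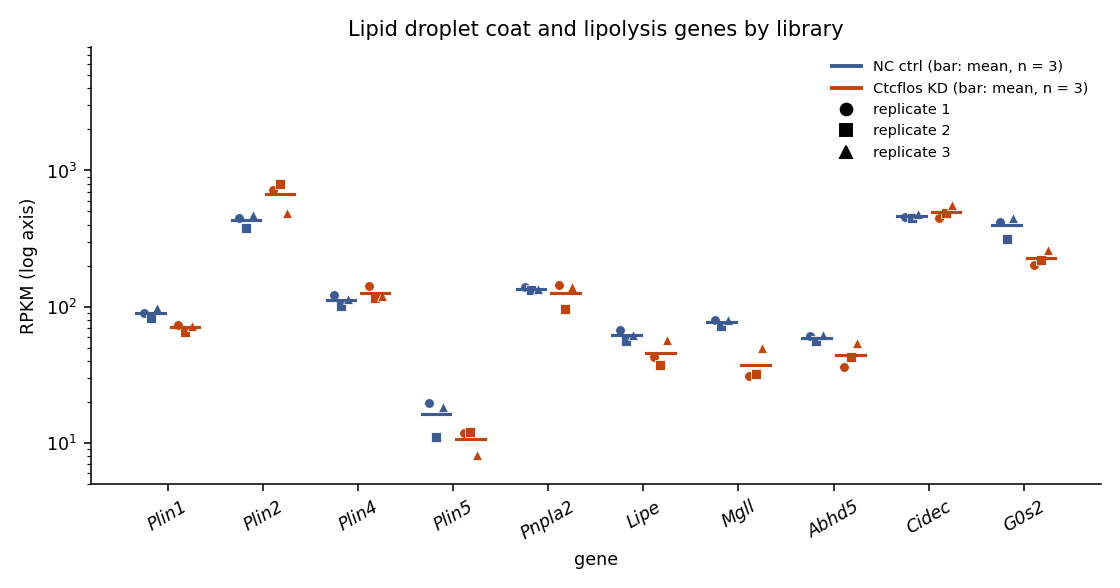
RPKM of the 10 genes (log axis) in the 3 NC ctrl and 3 *Ctcflos* KD libraries, with symbols for replicate numbers and bars for group means. The groups lie apart for *Plin1*, *Plin2*, *Mgll*, *Abhd5* and *G0s2*, and *Plin5* is the member with the lowest level.

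Levels of the members were compared with each other on the mean of curated RefSeq mRNAs, in RPKM, in the control libraries. *Cidec* was highest with 651 RPKM and ranked 13 among 20461 genes with such an accession. *Plin2* followed with 509 RPKM and *G0s2* with 375 RPKM, at ranks 20 and 34. Next came *Pnpla2* with 133 RPKM and *Plin4* with 124 RPKM, whose control ranges overlapped. *Plin1* at 97.7 RPKM, *Mgll* at 95.2 RPKM and *Lipe* at 88.0 RPKM also overlapped from neighbour to neighbour. *Abhd5* had 60.1 RPKM, and *Plin5* was lowest with 16.5 RPKM, at rank 1549. The mean of *Mgll* includes 1 RefSeq mRNA with only 4.86 RPKM. All other neighbours in this order had control ranges that did not overlap. The inhibitor *G0s2* was thus listed at a higher level than its target *Pnpla2* in every control library.

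By limma-trend on log2(RPKM + 1) with Benjamini-Hochberg adjustment over all 11701 genes, 2 of the 10 members passed an adjusted p of 0.05, or 20%, compared with 24.0% of all genes. Both were lower in KD, as were 12.4% of all genes, and no member was called higher, as were 11.5% of all genes. The share of members called was thus close to that of all genes. At an unadjusted p under 0.05 there were 7 members, 6 lower and 1 higher, compared with 38.9% of all genes. Without control replicate 1 or without control replicate 3, limma called 0 members, and in each case 3 had an unadjusted p under 0.05, while 3.71% and 3.62% of all genes were called in these fits. Without KD replicate 3 it called 5 members and 40.9% of all genes, so that the counts of members moved with those of all genes. The values of the groups did not overlap for 5 members, 4 lower and 1 higher, while this held for 44.8% of all genes, 21.9% lower and 22.9% higher. The median log2 fold change was -0.39 over the members and 0.028 over all genes. This scale understates changes of weakly expressed genes. RNA of whole cultures was measured, so that fewer adipocytes and less RNA per adipocyte cannot be told apart.

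**Figure D2:**
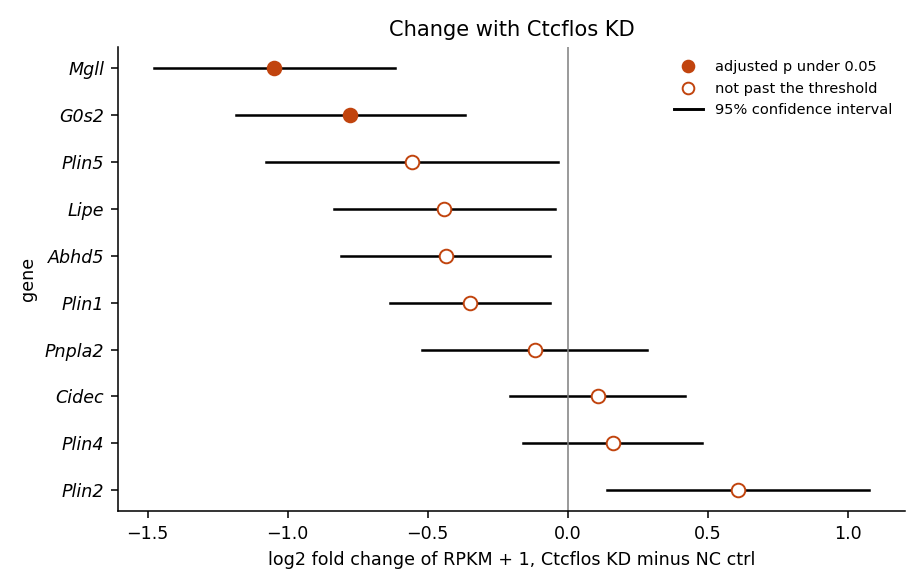
Log2 fold change of RPKM + 1 (*Ctcflos* KD minus NC ctrl, n = 3 libraries each) with 95% confidence intervals from limma-trend. Filled points passed an adjusted p of 0.05, which were *Mgll* at -1.05 and *G0s2* at -0.78. The intervals of *Plin4*, *Cidec* and *Pnpla2* include 0.

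Among the coat proteins, perilipin 1 is the adipocyte form that holds the *Abhd5* product until lipolysis is stimulated. *Plin1* had 73.0, 65.8 and 72.7 RPKM in KD replicates 1 to 3 and 90.4, 83.1 and 97.2 RPKM in the controls. Every KD library was below every control. The means were 70.5 ± 4.09 and 90.2 ± 7.05 RPKM (SD, n = 3), the log2 fold change was -0.35 (95% interval -0.64 to -0.065), and the adjusted p of 0.074 from limma missed the threshold. After scaling by the median of ratios it became 0.046, and in limma without the trend 0.045. It was 0.11 without a filter on low values and 0.15 with the replicate number as a block. With 1 library left out it was 0.061 to 0.26.

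Perilipin 2 coats droplets in most cell types and is made in larger amounts as cells take up lipid. *Plin2* had 718, 798 and 489 RPKM in KD and 445, 376 and 472 RPKM in the controls. KD replicate 3 lay just above the highest control, whereas the other KD libraries were well above all controls. The means were 668 ± 160 and 431 ± 49.6 RPKM (SD, n = 3), with a log2 fold change of 0.61 (95% interval 0.14 to 1.08) and an adjusted p of 0.063 from limma. Without KD replicate 3 the log2 fold change was 0.82 and the adjusted p from limma 0.007, in a fit where 40.9% of all genes were called. With any other library left out, the adjusted p from limma was 0.13 to 0.17.

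*Plin4*, which coats small and newly formed droplets of adipocytes, and *Plin5*, which is typical of oxidative tissues and connects droplets with mitochondria, are neighbours on chromosome 17 with 1.80 kb between their annotated ends. *Plin4* had 141, 116 and 119 RPKM in KD and 121, 101 and 113 RPKM in the controls, and the groups overlapped (log2 fold change 0.16, 95% interval -0.16 to 0.48). Its log2 fold change was 0.071 without KD replicate 1 and 0.091 without control replicate 2. *Plin5* had 11.8, 12.1 and 8.17 RPKM in KD and 19.8, 11.2 and 18.3 RPKM in the controls. Control replicate 2 was below KD replicates 1 and 2, and apart from it the controls were above all KD libraries. The log2 fold change of *Plin5* was -0.56 (95% interval -1.08 to -0.034) with an adjusted p of 0.11 from limma. Without control replicate 2 it was -0.80 with an adjusted p of 0.038. With any other library left out, the adjusted p from limma was 0.14 to 0.31.

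*Cidec* promotes the transfer of lipid between droplets that touch, by which large droplets form. It had 449, 488 and 560 RPKM in KD and 456, 451 and 478 RPKM in the controls. The groups overlapped, with a log2 fold change of 0.11 (95% interval -0.21 to 0.42). Without KD replicate 1 the log2 fold change was 0.18, and without KD replicate 3 it was 0.020. The interval over all libraries leaves out a doubling, which is 1 on this scale, in either direction.

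The composition of the perilipin transcripts was described with the curated RefSeq mRNAs of *Plin1* to *Plin5*, after the values had been seen and without a test. *Plin2* made up 76.3 ± 4.61% (SD, n = 3) of their summed RPKM in KD and 66.7 ± 0.881% in controls. *Plin1* made up 7.69 ± 1.83% in KD and 12.9 ± 0.542% in controls. *Plin5* contributed 1.04 ± 0.0217% and 2.14 ± 0.413%. The KD and control libraries did not overlap for any of these 3 shares. The sum itself was 1030 ± 194 RPKM in KD and 762 ± 83.2 RPKM in controls, and it overlapped between groups. Shares add up to 100%, so that a higher share of *Plin2* lowers the others.

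**Figure D3:**
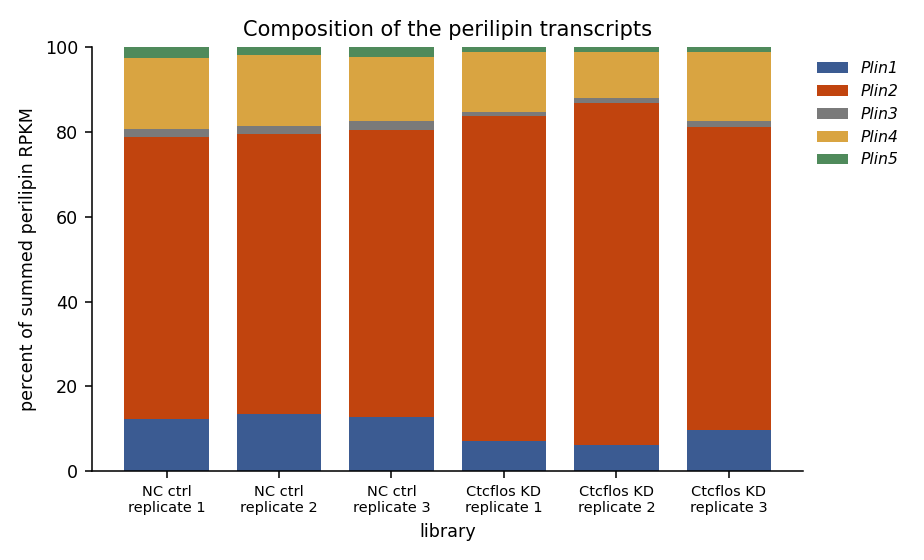
Share of each perilipin in the summed RPKM of *Plin1* to *Plin5* (curated RefSeq mRNAs, percent), 1 bar per library. *Plin2* takes 66.0 to 67.7% in controls and 71.6 to 80.8% in *Ctcflos* KD.

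Of the triglyceride lipase complex, the enzyme itself is encoded by *Pnpla2*, also known as ATGL. It had 145, 96.0 and 139 RPKM in KD and 140, 132 and 135 RPKM in the controls. KD replicate 2 was low, and the other KD libraries lay near or above the controls. The log2 fold change was -0.12 (95% interval -0.52 to 0.28, adjusted p = 0.64 from limma), and it was -0.23 without KD replicate 1, -0.19 without KD replicate 3 and 0.068 without KD replicate 2.

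*Abhd5* encodes the activator of this lipase, known as CGI-58. It had 36.0, 42.5 and 54.1 RPKM in KD and 60.8, 55.7 and 61.6 RPKM in the controls. The groups did not overlap, although KD replicate 3 came close to control replicate 2. The log2 fold change was -0.44 (95% interval -0.81 to -0.063) with an adjusted p of 0.085 from limma. Without KD replicate 3 it was -0.59 with an adjusted p of 0.011. With any other library left out, the adjusted p from limma was 0.13 to 0.23.

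*G0s2*, the inhibitor, had 204, 222 and 260 RPKM in KD and 422, 313 and 449 RPKM in the controls. All KD libraries were below all controls, and the lowest control was replicate 2. The means were 229 ± 28.9 and 395 ± 71.8 RPKM (SD, n = 3), and the log2 fold change was -0.78 (SE 0.177, 95% interval -1.18 to -0.37, adjusted p = 0.020 from limma). The adjusted p rose to 0.057, 0.061, 0.091 and 0.093 without KD replicate 1, KD replicate 2, control replicate 1 and control replicate 3, and to 0.059 without a filter on low values.

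*Lipe* encodes hormone-sensitive lipase, which mainly cuts diglycerides. It had 43.0, 37.4 and 56.9 RPKM in KD and 67.2, 56.0 and 61.9 RPKM in the controls. KD replicate 3 fell within the control range. The log2 fold change was -0.44 (95% interval -0.83 to -0.047) with an adjusted p of 0.096 from limma. Without KD replicate 3 it was -0.61 with an adjusted p of 0.012. With any other library left out, the adjusted p from limma was 0.13 to 0.27.

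*Mgll*, the monoglyceride lipase, also degrades the endocannabinoid 2-arachidonoylglycerol. It had 31.2, 32.0 and 49.8 RPKM in KD and 79.8, 72.4 and 79.3 RPKM in the controls. All KD libraries were far below the controls, and KD replicate 3 was again the nearest. The means were 37.7 ± 10.5 and 77.2 ± 4.12 RPKM (SD, n = 3), and the log2 fold change was -1.05 (SE 0.187, 95% interval -1.48 to -0.62, adjusted p = 0.010 from limma). In absolute size this was larger than the change of 98.4% of all genes tested. Its adjusted p became 0.056 without control replicate 1 and 0.054 without control replicate 3, at log2 fold changes of -1.02 and -1.03.

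Without the 2 libraries that stood apart, KD replicate 3 and control replicate 2, 7 of the 10 members were called, while 39.0% of all genes were called in that fit. *Plin1*, *Plin5*, *Lipe*, *Mgll*, *Abhd5* and *G0s2* were lower and *Plin2* was higher. This setting was chosen after the members' own values had been seen, and it leaves 2 libraries per group. The count of 7 therefore adds no support to the calls over all libraries. *Plin4*, *Cidec* and *Pnpla2* did not pass there either.

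Ratios within a library ask whether members changed by unequal amounts, independent of scaling between libraries. For 5 pairs of functional partners, log2 differences were compared by exact two-sided permutation tests, for which 0.1 is the smallest p that 3 against 3 libraries allow, so that no pair could reach 0.05. Of the coat genes, the log2 ratio of *Plin2* to *Plin1* was 3.28, 3.58 and 2.73 in KD and 2.29, 2.16 and 2.27 in the controls, a difference of 0.96 or 1.94-fold without overlap (exact p = 0.1, 0.125 after adjustment over the 5 pairs). The inhibitor to lipase ratio, *G0s2* to *Pnpla2*, was 0.48, 1.20 and 0.90 in KD and 1.59, 1.24 and 1.73 in the controls. KD replicate 2 and control replicate 2 nearly met. The difference was -0.66 with the same exact p.

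Of the lipases, *Mgll* to *Lipe* was -0.45, -0.22 and -0.19 in KD and 0.24, 0.37 and 0.35 in the controls on the log2 scale, so that the order of these genes in the averaged accessions was reversed in every KD library (difference -0.61, exact p = 0.1, adjusted 0.125). *Pnpla2* to *Lipe* was higher in KD by 0.32 with the same exact p, and the nearest libraries were 1.27 in KD and 1.22 in the controls. Without KD replicate 1 this difference was 0.18. *Abhd5* to *Plin1*, activator to its holding protein, was -0.68 ± 0.296 in KD and -0.59 ± 0.0479 in controls (SD, n = 3). Its groups overlapped (exact p = 0.8), and the difference of -0.086 turned to 0.075 without KD replicate 1.

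**Figure D4:**
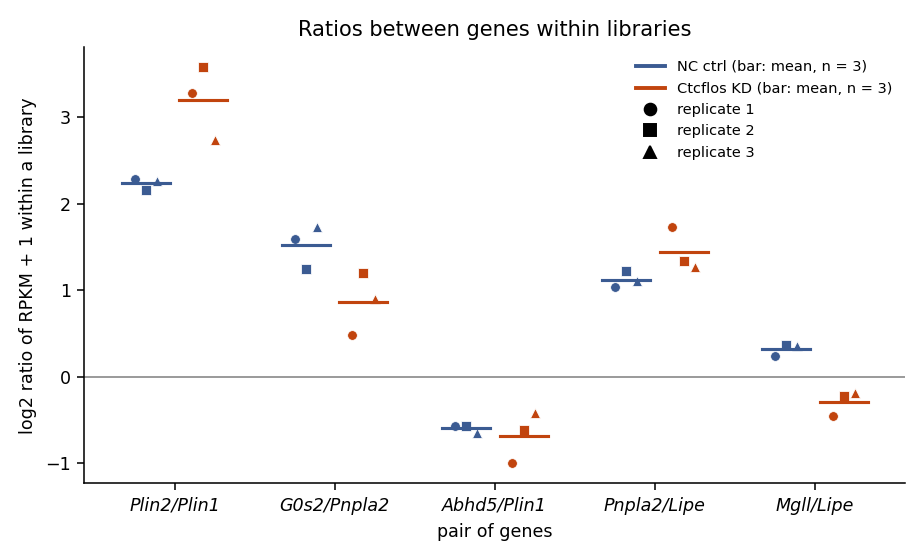
Log2 ratio of RPKM + 1 between 5 pairs of genes within each library, with symbols for replicate numbers and bars for group means. *Mgll*/*Lipe* lies above 0 in all 3 controls and below 0 in all 3 *Ctcflos* KD libraries, and *Abhd5*/*Plin1* overlaps between groups.

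The gene values average 69 accessions, of which 67 had a mean of at least 1 RPKM. In each of the 10 members, all accessions above this level had log2 fold changes of the same sign. For *Mgll*, 12 accessions ranged from 48.4% to 53.4% of the control. For *G0s2*, both accessions were at 57.9%. For *Plin2*, 11 accessions ranged from 143% to 157%, and for *Pnpla2*, 12 accessions from 90.9% to 98.0%. *Abhd5* had the widest spread, from 71.1% to 87.3%, and its upper end came from an accession of only 2.13 RPKM in controls. Both accessions under 1 RPKM belong to *Lipe*, and they lower its averaged value. Accessions of a gene overlap and share reads, so that they are not independent measurements.

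Overlapping genes in Gencode vM21 may also share reads with members, since the counting is not stated to use strand. *G0s2* on chromosome 1 (193272161 to 193273217 of GRCm38, minus strand) lies within the span of a gene on the other strand, *Lamb3*, which had 0.272 to 0.565 RPKM in the 6 libraries, far below *G0s2*. *Abhd5* on chromosome 9 (122351608 to 122381524, plus strand) overlaps the antisense RNA *A730085K08Rik*, which had 4.30 to 8.15 RPKM and 68.9% of the control in KD. *Lipe* on chromosome 7 (25379527 to 25398710, minus strand) overlaps the antisense RNA *4732471J01Rik* with 1.32 to 2.68 RPKM. *Mgll* spans 104 kb of chromosome 6 (88724412 to 88828360, plus strand), and the genes annotated within it were not analysed here, nor was *Hdgfl2*, which overlaps *Plin4*. *Plin2* on chromosome 4 (86648386 to 86670060, minus strand) overlaps no annotated gene.

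The members most alike over the 6 libraries were *Mgll* and *Abhd5*, with a Pearson correlation of log2(RPKM + 1) of 0.946. *G0s2* was most like *Mgll* (r = 0.943), *Plin1* most like *G0s2* (r = 0.941) and *Lipe* most like *Mgll* (r = 0.928). *Plin2* ran against them, with r = -0.914 to *Mgll*. *Cidec* resembled no other member, with a highest r of 0.156. Among 2994 genes of at least 10 RPKM, the closest to *Mgll* was *Map4k4* (r = 0.998), to *G0s2* *Ppp2r5a* (r = 0.999), to *Plin2* *Nupr1* (r = 0.999), to *Plin5* *Acaa2* (r = 0.999) and to *Pnpla2* *Col6a2* (r = 0.974). The points share the group difference and the depth of each library, and these correlations are descriptions without a test.

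Beyond the members, other genes of droplets and lipolysis were counted in 4 lists. In these lists and for the markers below, fell and rose mean a call at an adjusted p under 0.05 from limma. For comparison, 12.4% of all genes were called lower and 11.5% higher. Of 14 further droplet proteins, 11 were tested, 1 fell and 1 rose, with a median log2 fold change of 0.081. *Plin3*, the perilipin found in most cells, fell (-0.44, adjusted p = 0.041 from limma). *Hsd17b11*, a dehydrogenase that resides on droplets, rose from 26.7 ± 3.10 to 44.8 ± 6.34 RPKM (SD, n = 3; 0.72, adjusted p = 0.015). *Hilpda*, which like *G0s2* encodes an inhibitor of the triglyceride lipase, had 38.1, 40.0 and 9.11 RPKM in KD and 21.1, 7.83 and 23.2 RPKM in controls. Like *Plin2* and *Plin5*, it was lowest in replicate 3 of the KD group and in replicate 2 of the control group. *Hilpda* did not pass (adjusted p = 0.47 from limma). *Fitm2* and *Bscl2*, which act in droplet formation, had log2 fold changes of -0.042 and -0.031 and did not pass.

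Of 9 genes that handle fatty acids and glycerol after lipolysis, 3 fell and none rose, with a median log2 fold change of -0.45. *Aqp7*, the channel by which glycerol leaves adipocytes, had a log2 fold change of -0.48 (adjusted p = 0.015 from limma). *Cpt1a* and *Cpt1b*, which bring fatty acids into mitochondria, had -0.47 and -0.52 (adjusted p = 0.017 and 0.024). *Acsl1*, which activates fatty acids to acyl-CoA, had 119, 138 and 203 RPKM in KD and 220, 238 and 234 RPKM in controls, and its adjusted p was 0.054. *Fabp4* and *Cd36*, a carrier and an uptake protein of fatty acids, did not pass, with -0.30 and -0.17.

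Of 19 genes of the upstream control of lipolysis, 15 were tested, 3 fell and none rose, with a median of -0.13. *Adrb3*, the β-adrenergic receptor typical of adipocytes, fell from 16.5 ± 1.71 to 9.53 ± 2.84 RPKM (SD, n = 3; log2 fold change -0.76, adjusted p = 0.024 from limma). *Pde3b*, the phosphodiesterase through which insulin lowers cAMP, fell by 0.73 on the log2 scale (adjusted p = 0.023), and *Akap1*, an anchor of protein kinase A, by 0.73 (adjusted p = 0.013). The genes that fell thus include a receptor that stimulates lipolysis and an enzyme that limits it. *Gnas*, *Prkar2b* and *Ppp1cb* did not pass, with 0.30, -0.44 and 0.018. Of 9 other lipid hydrolases, 8 were tested and 1 fell, namely *Ddhd2*, which cuts phospholipids and triglycerides (-0.45, adjusted p = 0.044). *Lpl*, *Pnpla8* and *Lipa* had -0.41, -0.15 and -0.10 and did not pass, and the median was -0.13. The calls in these 4 lists depended on single libraries. Limma made 9 calls in all, in a fit where 24.0% of all genes were called. It made 0 without control replicate 1 or 3, with 12 and 13 genes at an unadjusted p under 0.05, and 18 without KD replicate 3. The shares of all genes called in those fits were 3.71%, 3.62% and 40.9%.

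**Figure D5:**
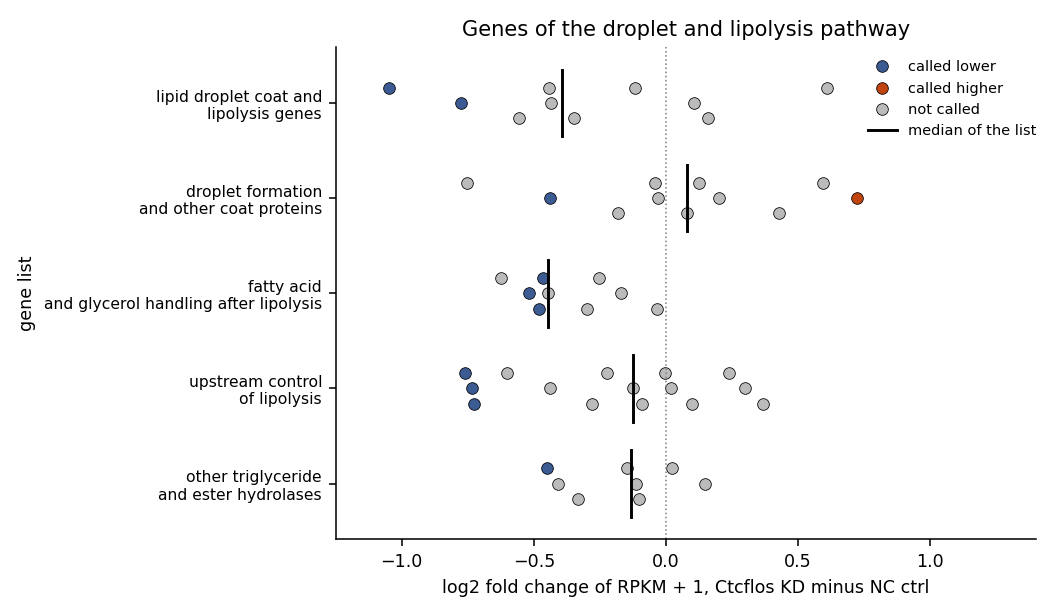
Log2 fold change of RPKM + 1 (*Ctcflos* KD minus NC ctrl) of each tested gene in 5 lists, with the median of each list as a line and calls at an adjusted p of 0.05 in colour. Calls are 2 lower among the 10 coat and lipolysis genes, 1 lower and 1 higher among other droplet proteins, 3 lower in each of the next 2 lists and 1 lower among other hydrolases.

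Markers of the cells were measured beside the members. Of 8 adipocyte markers, 7 were tested and 1 fell, *Cebpa*, a transcription factor of fat cells (-0.89, adjusted p = 0.038 from limma). Their summed RPKM ranged from 4172 to 5579 in KD and from 5834 to 6479 in controls, without overlap. Most of this sum came from *Fabp4*, with 2829 to 3574 RPKM in KD and 3682 to 4243 RPKM in controls, which did not pass (adjusted p = 0.16 from limma). *Adipoq* had a log2 fold change of -0.55 (adjusted p = 0.069). The lists are not independent, since *Fabp4*, *Cd36* and *Lpl* are also counted above, as is *Cidea* of the brite markers. *Lep* was listed at no more than 0.0617 RPKM. Of 5 brite markers, 3 fell, *Ucp1*, *Elovl3* and *Ppargc1a* (log2 fold change -1.21, -0.81 and -0.55). Their adjusted p from limma was 0.048, 0.0064 and 0.049, so that *Ucp1* and *Ppargc1a* passed narrowly. The nearest libraries of *Ucp1* were 26.1 RPKM in KD and 27.1 RPKM in the controls. The sum of the brite markers was 61.6 to 81.0 RPKM in KD and 108 to 166 RPKM in controls. *Cidea* and *Cox7a1* overlapped between groups and did not pass (-0.75 and -0.47). Of the adipocyte markers, *Cd36* and *Retn* overlapped as well, and *Retn* had a log2 fold change of 0.15. The part of these differences in the changes of the members was not tested.

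Of 9 progenitor and fibroblast markers, 6 were tested and *Pdgfra* fell (-0.69, adjusted p = 0.010 from limma), with sums of 436 to 690 RPKM in KD and 596 to 823 RPKM in controls. Of 6 macrophage and leukocyte markers, 2 were tested and *Cd68* rose (1.05, adjusted p = 0.023 from limma). The other, *Lyz2*, had -1.45 and did not pass (adjusted p = 0.17 from limma). Under the filter, *Csf1r* had 252% of the control in KD, without overlap. *Cd14* had 65.3% and *Ptprc* 6.09%, also without overlap, and *Adgre1* had 36.1% with overlap. The sum of the 6 markers was 7.23 to 16.8 RPKM in KD and 9.16 to 28.6 RPKM in controls. *Ptprc*, which is carried by all leukocytes, was at most 0.0486 RPKM, and *Adgre1* at most 0.345 RPKM. Smooth muscle and pericyte markers summed to 19.1 to 50.4 RPKM in KD and 34.4 to 87.7 RPKM in controls, mostly from *Acta2*. All 5 endothelial markers were under 1 RPKM in every library, with sums of 0.670 to 1.18 RPKM in KD and 1.16 to 1.63 RPKM in controls. Over all marker lists 6 genes passed, in a fit where 24.0% of all genes did. The count was 1 without control replicate 1 or 3 and 11 without KD replicate 3. In those fits 3.71%, 3.62% and 40.9% of all genes passed.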

How the data were processed

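Total RNA libraries of 3 *Ctcflos* KD and 3 NC ctrl cultures of primary brite adipocytes were analysed, with groups and replicate numbers from the sample labels and the harvest time and the oligonucleotide from the methods of the study. The authors deposited RPKM values for transcript accessions with decimal commas. For the splice analysis of these libraries the study aligned paired-end reads to GRCm38 with STAR. How the RPKM table was made, and whether its counting used strand, is not given in the sources used here. Of 168326 lines, 305 exact repeats were removed, and the 168021 remaining lines carry 52089 symbols. Each symbol received the mean RPKM of its accessions, 1 was added, and log2 values of genes with a mean of at least 1 RPKM were tested by limma-trend with Benjamini-Hochberg adjustment over all 11701 genes. P-values are two-sided. Depth was recovered from Ensembl transcripts with a Gencode vM21 length, for which at least 96.0% of low values were within 0.05 reads of whole multiples of 1 read. Single ratios were compared by exact permutation tests.

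All members were named, together with genes called in the pathway lists, up to 3 others of each list in order of mean RPKM, marker genes and the gene most like each member by correlation. The members and lists were chosen with earlier results of these data known. Alternatives were a pseudocount of 0.1, no filter, the replicate number as a block, library scaling by the median of ratios, curated RefSeq mRNAs only, the accession with the highest mean, limma without trend, an adjusted p of 0.01 and leaving out each library. Leaving out KD replicate 3 and control replicate 2 together was added after the data had been seen. Older symbols were matched through RefSeq synonyms (*Gyk* for *Gk*, *Niacr1* for *Hcar2*, *Emr1* for *Adgre1*). Proteins were not analysed here, and some items are not reported here. The work used R 4.3.3, limma 3.58.1, Python 3.11.15, pandas 2.3.3, numpy 2.4.6, scipy 1.17.1 and matplotlib 3.10.9.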

Additional observations from a re-analysis of the deposited data

How the results depend on the processing

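The count of members called was 2 with a pseudocount of 0.1, with curated RefSeq mRNAs, with the accession of the highest mean and with the replicate block, 3 after scaling by the median of ratios and in limma without trend, 1 without a filter and 0 at an adjusted p of 0.01. Leaving out 1 library gave 0 to 5 members, with none called without control replicate 1 or 3 and 5 without KD replicate 3, and leaving out KD replicate 3 and control replicate 2 together gave 7. The share of all genes called moved as well, from 3.62% to 40.9% with 1 library left out, to 4.71% without a filter and to 39.0% without both libraries. Calls in the 4 pathway lists numbered 9, against 5 without a filter, 0 to 18 with 1 library left out and 19 without both libraries. Calls among the markers numbered 6, against 3, 1 to 11 and 13 in the same settings.

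The log2 fold change kept its sign in all alternatives for the members other than *Pnpla2*, which was 0.068 without KD replicate 2 and ranged from -0.23 to 0.068 with 1 library left out. *Mgll* ranged from -1.26 to -0.93 (adjusted p 5.3e-04 to 0.056) with 1 library left out, and *G0s2* from -0.93 to -0.67 (adjusted p 0.0097 to 0.093). *G0s2* was -0.78 without a filter and no longer passed (adjusted p = 0.059). *Plin1* passed after scaling (-0.38) and in limma without trend (-0.35). With 1 library left out it ranged from -0.41 to -0.30 (adjusted p from limma 0.061 to 0.26). With 1 library left out, *Plin2* ranged from 0.47 to 0.82, *Plin5* from -0.80 to -0.39, *Lipe* from -0.61 to -0.31 and *Abhd5* from -0.59 to -0.30. Their adjusted p from limma ranged from 0.0069 to 0.17, 0.038 to 0.31, 0.012 to 0.27 and 0.011 to 0.23, in that order. Without both libraries *Plin1* was -0.43, *Plin2* 0.72, *Plin5* -0.63, *Lipe* -0.67, *Abhd5* -0.63, *Mgll* -1.31 and *G0s2* -1.03, and all 7 passed. *Plin4* and *Cidec* passed in no setting and ranged from 0.071 to 0.22 and from 0.020 to 0.18 with 1 library left out. The difference of the *Abhd5* to *Plin1* ratio was 0.075 without KD replicate 1 and ranged from -0.22 to 0.075 with 1 library left out, and the other ratios kept their sign, with *Pnpla2* to *Lipe* at 0.18 without KD replicate 1. The cause of these changes was not tested.

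The labels do not say whether a KD library and a control that share a replicate number were paired. For the numbers 1, 2 and 3, their deviations correlated at 0.29, -0.29 and -0.42. With 3 libraries per group, these correlations cannot decide whether the libraries were paired. With the replicate block, 1671 genes were called against 2803 without it, *Mgll* and *G0s2* among them (adjusted p = 0.024 and 0.040), while 7 pathway genes and 4 markers passed. Without a filter, 1807 of 38335 genes were called. RPKM values carry the depth only indirectly, and 3 libraries per group limit the precision.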
